A study of Mus musculus with 16 samples.

Results

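Eomes intermediate progenitors without mitotic RNA were taken as the cells with at least 3 UMIs (barcoded RNA molecules, each counted once) of Eomes, more UMIs of Eomes than of Neurod1, and 0 UMIs summed over 10 mitotic genes (Top2a, Mki67, Ccnb1, Nusap1, Prc1, Kif11, Aurkb, Ccna2, Cenpf and Tpx2). The rule found 424 of 5777 cells, or 7.34% (exact Clopper-Pearson 95% interval 6.68 to 8.04%, counting error only). Eomes, Neurod1 and the 10 mitotic genes chose these cells, so their values describe the choice and are not findings. All other genes were read in the same cells, and their values are descriptions with no test.

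The source is embryonic day 15.5 forebrain of CD1 mice, which are outbred, with a wild-type genotype, and the series design names the cerebral cortex. The 16 samples share strain, genotype, tissue and age, carry no treatment, and were deposited as 1 pooled matrix whose cell names hold no sample, so they form 1 group without separable replicates. In column order the cells up to the last with a Y-linked UMI form a first run of 3651, and those from the first with a UMI of 11 genes listed out of alphabetical order form a second run of 2122, with 4 cells between. The labels do not say what a run is, and values of each run stand beside pooled ones where a result leans on them. The runs are not labelled replicates. The progenitors made up 193 cells (5.29%, 4.58 to 6.06%) of the first run and 231 cells (10.9%, 9.59 to 12.3%) of the second.

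Intermediate progenitors are the basal progenitors of the developing cortex. They arise from radial glia under proneural factors such as Neurog2, lose contact with the ventricle, move to the subventricular zone, and usually divide once to yield glutamatergic neurons. Eomes (Tbr2), a T-box transcription factor, marks them, and the handover from Pax6 in radial glia through Eomes and Neurod1 to Tbr1 in neurons is a textbook sequence of this tissue. Cells of this type also present Notch ligands, through which they hold neighbouring radial glia in the progenitor state.

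The intermediate progenitors without mitotic RNA were set against 3 classes cut by the same kind of rule. Dividing Eomes intermediate progenitors met the same Eomes condition with at least 3 mitotic UMIs (125 cells). Newborn Neurod1 neurons had at least 3 Neurod1 UMIs, at least as many as of Eomes, and 0 mitotic UMIs (454 cells). Radial glia without mitotic RNA had at least 3 UMIs of Slc1a3, Aldoc, Hopx, Ddah1 and Mlc1 together and none of Eomes, Neurod1, the mitotic genes and 6 ventral or oligodendrocyte genes (119 cells). Ventral cells, with at least 5 UMIs of Dlx1, Dlx2, Dlx5, Dlx6os1, Gad1 and Gad2 together (1388 cells, 13 of them also members), are given as a further class. Median depth was 3016 UMIs per cell in the intermediate progenitors without mitotic RNA, 5182 in dividing progenitors, 3757 in newborn neurons and 2936 in radial glia. Levels are CPM, the UMIs of a gene per 1000000 UMIs of the class, and a UMI counts a molecule, so no length scaling was applied. A ratio carries an exact conditional binomial 95% interval that covers counting error only, a gene was counted as higher or lower past a 1.5-fold ratio, and no p-value was possible with 1 pool.

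Within the members, Eomes ran from 3 to 30 UMIs per cell with a median of 7, and Neurod1 ran from 0 to 17 with a median of 1. Neurod1 was at 0 UMIs in 206 of the 424 cells (48.6%). How far the 0 in the mitotic genes rests on depth was measured by drawing the classes from a random 50% of each cell's UMIs and reading the remainder. Of the 350 cells that then met the rule, 39 (11.1%, 8.04 to 14.9%) had a mitotic UMI in the unread part and 0 had 3 or more. The same share was 96.4% in dividing progenitors, 12.7% in newborn neurons, 26.3% in radial glia and 39.6% in ventral cells, which hold dividing cells of the ganglionic eminences. The intervals of the members and of newborn neurons (9.19 to 17.0%) overlap. In that unread part Eomes stood at 2278 CPM in the members, against 1563 CPM in dividing progenitors and 509 CPM in newborn neurons.

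The 48 members with exactly 3 Eomes UMIs held Neurog2 at 810 CPM, against 650 CPM in the 73 cells that missed the rule with 2 Eomes UMIs. All 424 members held Neurog2 at 1357 CPM and Btg2 at 587 CPM, against 1241 and 640 CPM in the 98 cells that missed the rule by 1 mitotic UMI. Pcna, the replication clamp gene, had 55.6 CPM in the members, against 49.6 CPM in the 98 cells with 1 mitotic UMI and 116 CPM in the 33 cells with 2. At the Neurod1 edge, the 19 members with Neurod1 1 UMI below Eomes held Neurog2 at 732 CPM, against 406 CPM in the 20 cells with equal counts.

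The markers named with the rule had their highest pooled level, among the 5 classes compared, in the intermediate progenitors without mitotic RNA. Against dividing progenitors, however, only 1 of the 4 other than Eomes passed 1.5-fold, Neurog2 at 1.68-fold. Btg2 was 1.43-fold, Neurog1 1.21-fold and Gadd45g 1.16-fold higher. Neurog2 (mm10 chr3:127633135-127635631), the proneural factor that drives glutamatergic neurogenesis in the cortex, had 1357 CPM in the members (1245 and 1463 CPM by run). It had 807 CPM in dividing progenitors, 173 CPM in newborn neurons, 232 CPM in radial glia and 77.4 CPM in ventral cells. Both runs of the members exceeded every other class.

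Neurog1 (chr13:56250478-56252163), the related proneural factor, was at 130 CPM in the members and 107 CPM in dividing progenitors, a ratio of 1.21 (0.927 to 1.60) that counting error alone can span. It was nearly absent elsewhere, with 4 UMIs in newborn neurons (2.03 CPM), 0 UMIs in radial glia and 5.81 CPM in ventral cells. Against radial glia the ratio was 18.0 with the 0 UMIs of that class set to a floor of 3 counts. Btg2 (chr1:134075170-134079120), an antiproliferative gene known for marking neurogenic divisions, had 587 CPM in the members, 410 CPM in dividing progenitors, 93.0 CPM in newborn neurons and 276 CPM in radial glia. Gadd45g (chr13:51846678-51848468), a growth arrest gene and known target of proneural factors, had 322 CPM in the members (339 and 305 CPM by run), 278 CPM in dividing progenitors (321 and 93.3 CPM by run), 70.1 CPM in newborn neurons and 36.3 CPM in radial glia.

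Shares of cells were compared after each cell was thinned to 1000 UMIs. Neurog2 was seen in 59.4% of the members (54.6 to 64.1%; 81.4% unthinned), 53.6% of dividing progenitors, 13.7% of newborn neurons and 12.6% of radial glia. Ventral cells, which lack Neurog2 in textbook accounts, showed it in 4.18% (3.19 to 5.37%, median depth 2780 UMIs). That class also counts 13 members, 23 dividing progenitors and 15 newborn neurons, so its share does not measure free RNA alone. Neurog1 was seen in 11.3% of the members (8.47 to 14.7%) and in 0.216% of ventral cells. The difference between the members and the dividing progenitors in the share of Neurog2 cells was within their counting intervals.

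**Figure D1:**
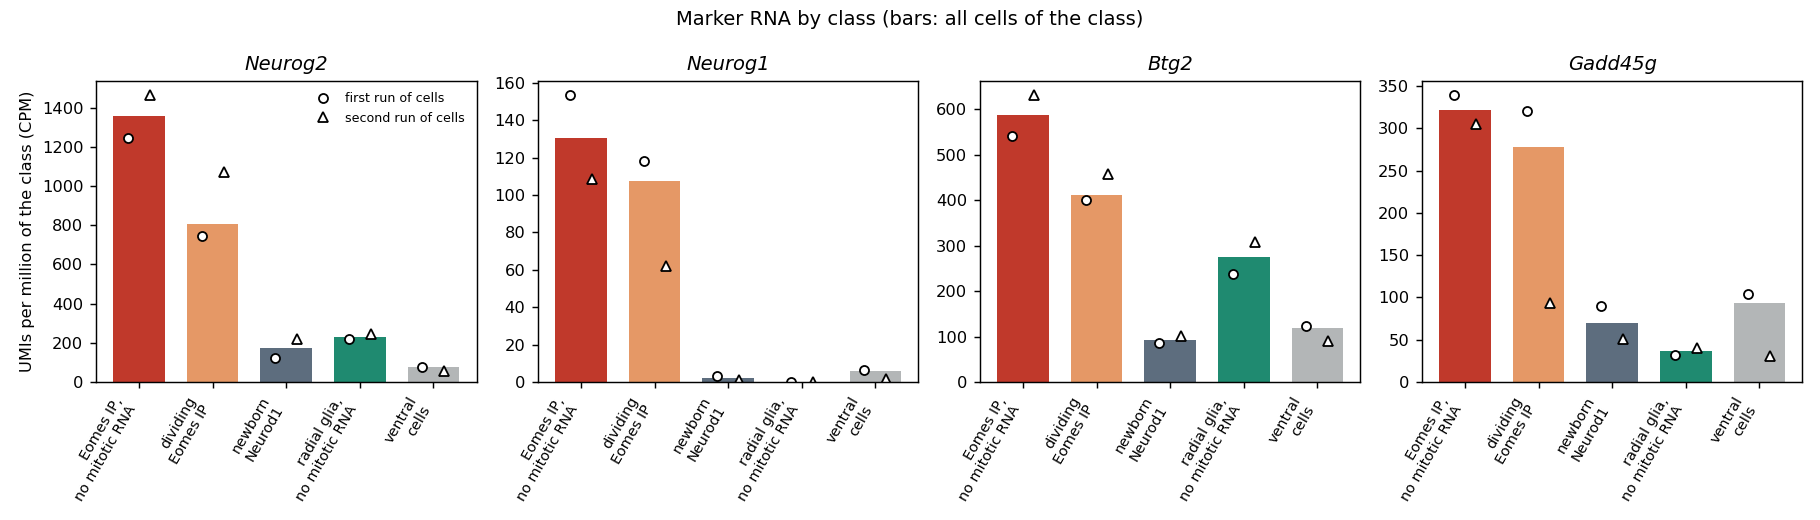
Levels of Neurog2, Neurog1, Btg2 and Gadd45g in CPM for intermediate progenitors without mitotic RNA, dividing progenitors, newborn neurons, radial glia and ventral cells; bars are all cells of a class, circles and triangles its first and second run. Neurog2 stood at 1357 CPM in the members, above the 807 CPM of dividing progenitors and the 173 CPM of newborn neurons.

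RNA of other cell types was measured by marker lists. Over 13 ventral forebrain genes their summed level was 416 CPM (618 and 223 CPM by run), against 888 CPM in dividing progenitors, 300 CPM in newborn neurons, 288 CPM in radial glia and 5903 CPM in ventral cells. Of that list Dlx6 was at 0 in the members, and 62 members held 3 or more of its UMIs. In the members 13 cells held 5 or more UMIs of Dlx1, Dlx2, Dlx5, Dlx6os1, Gad1 and Gad2. Of 9 microglia genes 7 were at 0 and the list summed to 2 UMIs over the members. Of 9 endothelial and mural genes 6 were at 0, including Cldn5, Pecam1 and Kdr, and choroid plexus genes summed to 46 UMIs, 36 of them of Ttr. Over 7 Cajal-Retzius genes, led by Reln, the sum was 171 CPM in the members, 295 CPM in dividing progenitors, 181 CPM in newborn neurons, 60.5 CPM in radial glia and 154 CPM in ventral cells, and 17 members held 3 or more of these UMIs. The part of such RNA in the results was not tested.

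Against all other 5353 cells, 10% of the 11703 genes measured (at least 50 UMIs over both sides) were at least 1.5 times higher in the members and 20.4% were lower. In simulated counts, counting error alone took 7.06% of genes without a difference past 1.5-fold, both directions together. The 25 genes with the highest ratio, among those with at least 100 UMIs in the members, were picked from their values. In order they open with Neurog1, Neurod4, Kif26b, Neurog2, Rhbdl3, Btbd17 and Smoc1. Neurog1 was 13.4-fold higher (10.9 to 16.4), Neurod4, a bHLH factor downstream of proneural genes, 10.7-fold (8.68 to 13.3) and Neurog2 8.71-fold (8.23 to 9.22). Kif26b, a kinesin-family gene, was 9.73-fold higher (7.73 to 12.2). Rhbdl3 was 6.34-fold, Btbd17 5.29-fold and Smoc1 4.72-fold higher, followed by Gadd45g at 4.65-fold and Btg2 at 4.45-fold.

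Further down that list stood genes of adhesion, matrix and signalling. Celsr1, a cadherin of planar cell polarity, had 427 CPM in the members, 373 CPM in dividing progenitors, 142 CPM in newborn neurons and 252 CPM in radial glia. Mfap4, which encodes an extracellular matrix glycoprotein, had 307 CPM in the members, against 178 CPM in dividing progenitors and 224 CPM in newborn neurons. Sstr2, a somatostatin receptor gene, had 169 CPM in the members, against 89.5 CPM in dividing progenitors, 130 CPM in newborn neurons and 2.42 CPM in radial glia. Dmrta2, a transcription factor of cortical progenitors, had 184 CPM in the members and 145 CPM in radial glia, against 33.0 CPM in newborn neurons.

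The promoters of these leading genes were searched for letters that bHLH and T-box factors are known to bind, because Neurog2 and Eomes belong to those families. RefSeq promoter windows on GRCm38.p6 (250 bases before to 50 bases after the start of the gene) were matched for 17 of the 25 genes. The E-box letters CAGCTG, which read the same on both strands, lay in 3 of the 17 windows (17.6%), those of Dhrs4, Gadd45g and Hes6, against 16.1% of all 27025 windows. CAGATG, searched on both strands, and the palindrome CATATG lay in 0 of the 17, against 17.2% and 3.91% of all windows. The T-box letters GGTGTGA, searched on both strands, lay in 1 of the 17 (Zc3h12c), against 3.96% of all windows. The windows of Gadd45g (chr13:51846425-51846724, plus strand) and Hes6 (chr1:91413989-91414288, minus strand) are printed 5′ to 3′ as the leading genes of known role that hold CAGCTG, with those letters in capitals. Other forms of the E-box were not searched and are not marked.
Gadd45g: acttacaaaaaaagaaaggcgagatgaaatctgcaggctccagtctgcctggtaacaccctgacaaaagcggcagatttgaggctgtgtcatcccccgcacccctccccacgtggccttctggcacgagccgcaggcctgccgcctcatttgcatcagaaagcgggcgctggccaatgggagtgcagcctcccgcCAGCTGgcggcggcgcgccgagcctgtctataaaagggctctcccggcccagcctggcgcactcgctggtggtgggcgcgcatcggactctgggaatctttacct
Hes6: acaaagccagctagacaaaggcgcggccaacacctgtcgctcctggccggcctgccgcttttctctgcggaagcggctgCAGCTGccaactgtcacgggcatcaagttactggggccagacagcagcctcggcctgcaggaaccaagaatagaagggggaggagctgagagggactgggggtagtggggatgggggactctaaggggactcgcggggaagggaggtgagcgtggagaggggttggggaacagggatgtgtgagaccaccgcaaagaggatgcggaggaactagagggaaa
The leading genes held an E-box of any of the 3 kinds in 17.6% of windows, against 33.2% of all windows, so these windows near the start were not richer in those letters. A match in letters describes the sequence and not a bound site, and no match says nothing about more distant sequence.

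Against dividing Eomes intermediate progenitors, the members held less RNA of replication and mitosis genes. S-phase genes summed to 1718 CPM in the members and 5283 CPM in dividing progenitors. Of 7426 genes measured, 11.8% were at least 1.5 times higher in the members and 10.9% were lower. Depth was lower in the members (median 3016 UMIs per cell, against 5182), and the dividing class had only 27 cells in the second run. Among the 55 genes named by rule, 50 had the same sign in both runs. The runs are parts of the pool whose large ratios named most of these genes, which favours the same sign. Over all genes past 1.5-fold, 795 of 876 higher and 710 of 807 lower kept their sign in both runs.

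Cell cycle genes outside the rule share the contrast that the rule made, so their values describe that choice. Of 46 G2/M genes 40 were measured, of which 38 were lower and 0 higher in the members, with a median log2 ratio of -4.45 (0.04 over all genes measured). Cdca8, a subunit of the chromosomal passenger complex, had 4.80 CPM in the members and 329 CPM in dividing progenitors, 68.6-fold lower (32.8 to 172). Plk1, a kinase of mitotic entry, had 2.74 CPM in the members, against 138 CPM. S-phase genes were lower in 30 of 32 measured, with a median log2 ratio of -1.61, and none was higher. Rrm2, a ribonucleotide reductase subunit, was 9.73-fold lower (7.43 to 12.9), and Mcm3, a subunit of the replicative helicase, 4.38-fold lower (3.16 to 6.12).

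Cell cycle exit genes did not move as a block. Of 19 measured, 2 were higher and 4 lower, beside the 11.8% and 10.9% of all genes. Cdkn1c, which encodes the cyclin-dependent kinase inhibitor p57, had 305 CPM in the members (356 and 257 CPM in the runs), against 105 CPM in dividing progenitors (122 and 31.1 CPM). That is 2.92-fold higher (2.28 to 3.77). Cdkn1b (p27) differed within counting error, at 200 CPM in the members and 182 CPM in dividing progenitors. Cdkn2c (p18) was 7.25-fold lower (4.25 to 12.99), at 12.3 CPM in the members, against 89.5 CPM. The members held only 18 UMIs of Cdkn2c, so its values by run, 62.5-fold and 4.10-fold lower, rest on few UMIs. Ccnd1, a G1 cyclin, was 3.24-fold lower (2.53 to 4.18), with 71.3 CPM in the members, against 231 CPM in dividing progenitors, and 3.23-fold and 1.51-fold lower by run.

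Neuronal genes were somewhat higher in the members than in dividing progenitors. Of 32 young neuron genes measured, 10 were higher and 0 lower, with a median log2 ratio of 0.48, and of 29 multipolar migration genes 8 were higher and 2 lower. Unc5d, a netrin receptor known for marking multipolar cells, had 123 CPM in the members (94.3 and 150 CPM in the runs), against 62.0 CPM in dividing progenitors. Pou3f1, a POU-domain factor of upper-layer neurons, was 2.56-fold higher (1.92 to 3.47), or 1.54-fold and 3.21-fold by run. Elavl2, an RNA-binding protein of early neurons, was 1.92-fold higher (1.73 to 2.13), at 1239 CPM, against 646 CPM.

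Among other intermediate progenitor genes, 9 of 25 measured were higher than in dividing progenitors and 0 were lower, with a median log2 ratio of 0.54. Kif26b was 2.07-fold higher (1.40 to 3.15). Dll1, a Notch ligand, had 248 CPM in the members and 156 CPM in dividing progenitors, 1.59-fold higher (1.28 to 1.98; 1.91 and 1.11 by run), and Dll3, a ligand known to act inside the cell, was level at 62.4 and 60.6 CPM.

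Radial glia genes were lower in the members than in dividing progenitors in 14 of 21 measured, with 0 higher and a median log2 ratio of -0.94. Hes1, a Notch effector, had 53.5 CPM in the members (63.3 and 44.2 CPM in the runs), against 196 CPM in dividing progenitors (206 and 155 CPM), 3.66-fold lower (2.75 to 4.88). Nes, the nestin filament gene, was 3.81-fold lower (2.93 to 4.99), and Sox3, a progenitor factor, 3.83-fold lower (2.80 to 5.28). Hes5, the other main Notch effector of the cortex, was level, at 398 CPM in the members and 401 CPM in dividing progenitors, with an interval of 0.872 to 1.16 on the ratio of dividing progenitors over members.

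Dlx1 and Dlx2, factors of the ventral forebrain, were lower in the members than in dividing progenitors (Dlx2 at 37.7 CPM, against 163 CPM). That difference moves with cells that hold RNA of both types: 13 members and 23 dividing progenitors held 5 or more ventral UMIs. Without those cells Dlx2 was at 15.8 CPM in the members and 9.19 CPM in dividing progenitors, and the log2 ratio of Dlx1 was 0.06.

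Against newborn Neurod1 neurons, the members held more RNA of radial glia markers and Notch targets and less of young neuron genes. Of 8331 genes measured, 13.8% were at least 1.5 times higher in the members and 11.2% were lower. Counting error alone took 2.72% of genes simulated without a difference past 1.5-fold, both directions together. Of the 58 genes named by rule, 55 had the same sign in both runs, which naming by large pooled ratios favours. Over all genes past 1.5-fold, 1124 of 1151 higher and 911 of 936 lower kept their sign in both runs.

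Notch genes past 1.5-fold were all higher in this contrast. Of 13 Notch receptor, modifier and cofactor genes measured 5 were higher and 0 lower. Of 6 genes measured on the Notch target list 5 were higher and 0 lower, with a median log2 ratio of 2.14, and both measured ligands were higher. That list counts Hes6, a gene known to oppose Hes1, with 527 CPM in the members and 143 CPM in newborn neurons. Hes5 had 398 CPM in the members (328 and 464 CPM in the runs), against 24.9 CPM in newborn neurons (15.4 and 34.3 CPM), 15.97-fold higher (11.9 to 21.8). Nrarp, a feedback inhibitor of Notch, was 5.88-fold higher (4.57 to 7.64).

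The receptor Notch1 had 190 CPM in the members, against 25.9 CPM in newborn neurons, 7.33-fold higher (5.42 to 10.1). Dll1 was 3.12-fold higher (2.58 to 3.79), and Mfng, a glycosyltransferase that modifies Notch receptors, 2.92-fold higher (2.44 to 3.51). In all of these genes each run of the members lay above both runs of the newborn neurons.

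Radial glia genes were higher than in newborn neurons in 20 of 21 measured (median log2 ratio 1.92). Sox2, a progenitor factor, had 186 CPM in the members and 41.2 CPM in newborn neurons, 4.51-fold higher (3.51 to 5.86), and Sox21, of the same family, was 5.57-fold higher (3.51 to 9.21). Among the genes with the largest ratio were Lpar1, a lysophosphatidic acid receptor gene (16.9-fold, 8.87 to 36.0), Smoc1, a secreted matrix protein gene (14.7-fold, 7.70 to 31.5), and Zfp36l1, an RNA-decay factor (10.8-fold, 7.10 to 17.1). Neurog1 was 64.1-fold higher on 4 UMIs in newborn neurons (24.6 to 238), and Neurog2 7.85-fold higher (6.99 to 8.83).

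Some cell cycle RNA remained above the level of the neurons. S-phase genes were higher in 15 of 25 measured and lower in 0, with a median log2 ratio of 0.75. Mcm3 had 38.4 CPM in the members and 9.66 CPM in newborn neurons, 3.98-fold higher (2.33 to 7.09). Pcna, at 55.6 CPM in the members and 29.99 CPM in newborn neurons, was 1.85-fold higher (1.31 to 2.64). G1 cyclins and kinases were higher in 6 of 10 and lower in 1, with Ccnd1 5.20-fold higher (3.38 to 8.26) and E2f1, a transcription factor of the G1 to S step, 4.63-fold higher (2.81 to 7.92).

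Young neuron genes were lower than in newborn neurons in 27 of 32 measured and higher in 0 (median log2 ratio -0.87), and multipolar migration genes were lower in 16 of 30 and higher in 3. Gap43, a growth cone protein gene, had 183 CPM in the members, against 651 CPM in newborn neurons, 3.56-fold lower (3.11 to 4.07). Cntn2, an axonal adhesion molecule gene, was 4.46-fold lower (3.90 to 5.13), and Sema3c, a secreted guidance cue gene, 5.28-fold lower (4.13 to 6.83). Bhlhe22, a bHLH factor of cortical area and axon development, was 6.01-fold lower (5.12 to 7.09). Cyp26b1, which encodes a retinoic acid degrading enzyme, had 1 UMI in the members and 99 in newborn neurons, a ratio of 73.4 whose counting interval runs from 12.9 to 2927.

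Dcx, a microtubule protein gene of migrating neurons, had 996 CPM in the members and 2036 CPM in newborn neurons, and Tubb3, a neuronal tubulin gene, 894 and 1799 CPM. The RNA-binding proteins split: Elavl2 was 1.51-fold higher (1.41 to 1.62) and Elavl4 1.86-fold higher (1.71 to 2.02) in the members, whereas Elavl3 was 1.72-fold lower (1.59 to 1.87). Rbfox1, a splicing factor gene of maturing neurons, was 2.53-fold lower (2.06 to 3.13). Slc17a6, the vesicular glutamate transporter Vglut2 gene, was level at 229 CPM in the members and 226 CPM in newborn neurons.

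**Figure D2:**
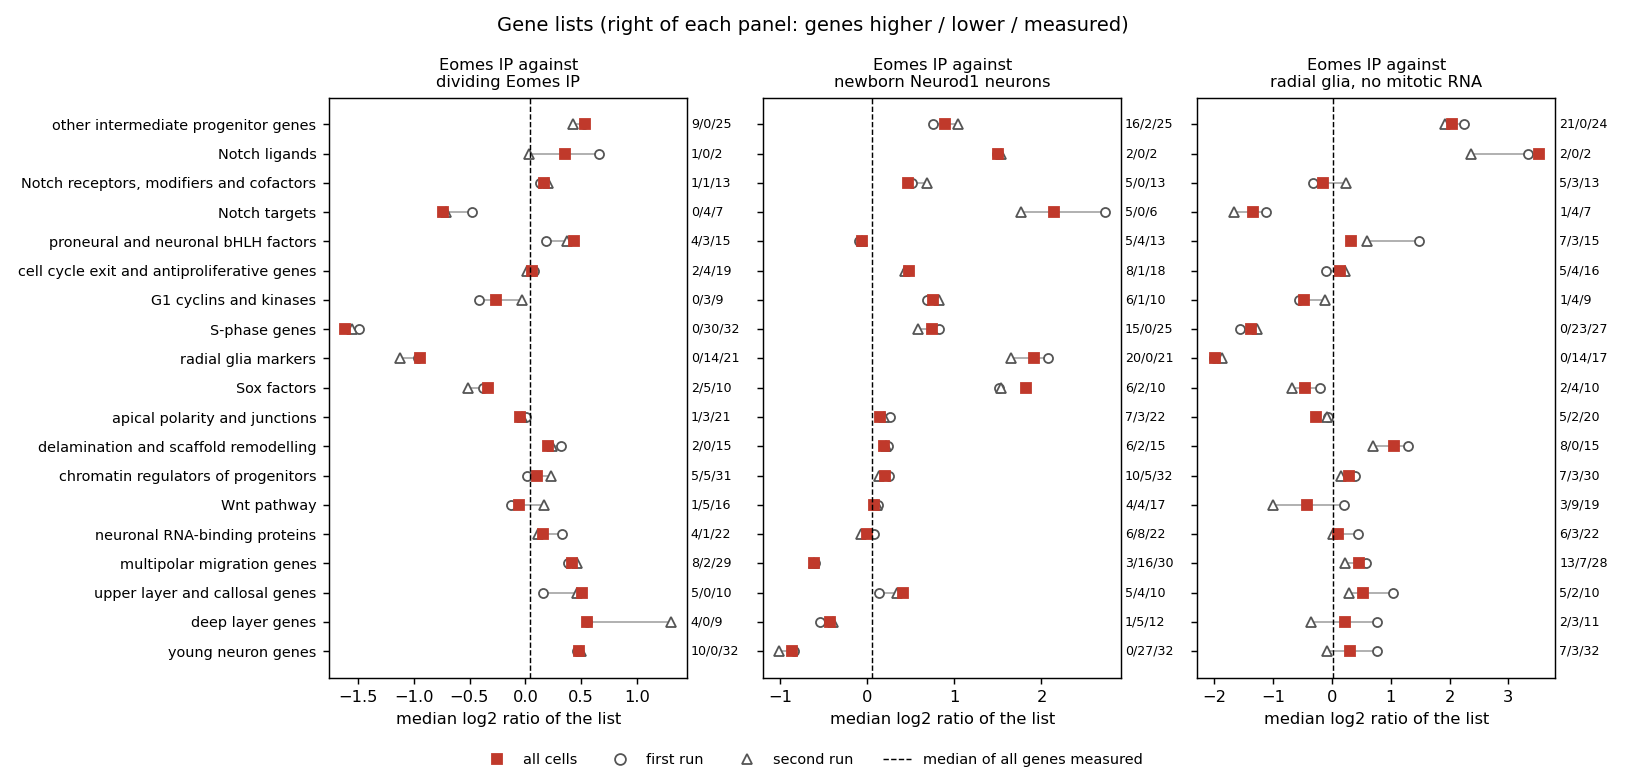
Median log2 ratio of the measured genes of each gene list, for intermediate progenitors without mitotic RNA over dividing progenitors, over newborn neurons and over radial glia; squares are all cells, circles and triangles the runs, the dashed line is the median of all genes measured, and the numbers are genes higher, lower and measured. Radial glia markers had a median of -0.94 over dividing progenitors, 1.92 over newborn neurons and -1.99 over radial glia.

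Against radial glia without mitotic RNA, the members held more RNA of intermediate progenitor genes and Notch ligands and less of most radial glia markers. Radial glia markers outside the class rule summed to 4199 CPM in the members and 13169 CPM in radial glia. Of 6999 genes measured, 16.8% were at least 1.5 times higher in the members and 14.3% were lower. Counting error alone took 8.14% of genes simulated without a difference past 1.5-fold, both directions together. All 51 genes named by rule had the same sign in both runs, which naming by large pooled ratios favours. Over all genes past 1.5-fold, 1138 of 1179 higher and 907 of 1000 lower kept their sign in both runs.

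Other intermediate progenitor genes were higher in 21 of 24 measured and lower in 0, with a median log2 ratio of 2.05. Sstr2 had 1 UMI in radial glia and 247 in the members, a ratio of 70.02 (12.45 to 2777). Slc17a6 was 31.6-fold higher (10.7 to 154) on 3 UMIs in radial glia, and Scrt2, a transcriptional repressor known in delamination of neural precursors, 17.0-fold (4.61 to 142) on 2 UMIs. Insm1, a zinc-finger factor needed for basal progenitor formation, was better counted: it had 922 CPM in the members (793 and 1045 CPM in the runs), against 206 CPM in radial glia, 4.49-fold higher (3.60 to 5.65). Rcor2, a corepressor gene, had 589 CPM in the members, against 84.7 CPM in radial glia, 6.96-fold higher (4.96 to 10.1).

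Notch ligand genes were higher than in radial glia, 2 of 2 measured, while receptor, modifier and cofactor genes went both ways, with 5 higher and 3 lower of 13. The ligand gene Dll1 had 248 CPM in the members (281 and 215 CPM in the runs), against 24.2 CPM in radial glia (21.2 and 26.7 CPM), 10.2-fold higher (5.50 to 21.5). Mfng was 12.3-fold higher (6.40 to 27.1), and Numbl, a Notch inhibitor gene of the Numb family, 12.47-fold higher (3.35 to 105) on 2 UMIs in radial glia. The receptor gene Notch2 was 9.83-fold lower (6.54 to 15.1), at 22.6 CPM in the members, against 223 CPM in radial glia.

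Of 7 Notch target genes measured 4 were lower than in radial glia and 1 was higher (median log2 ratio -1.35). Hes1 was 8.59-fold lower (6.57 to 11.3), at 53.5 CPM in the members, against 460 CPM in radial glia. Hes5 was 1.31-fold lower (1.11 to 1.53), at 398 CPM, against 520 CPM. The pair of effectors thus differed in how far their pooled levels fell short of the radial glia level. Hes5 varied among the members with Neurod1, as given below. Notch1 was 1.39-fold lower (1.10 to 1.74). Hes6, a Hes-family gene known to oppose Hes1 that the target list also counts, was the gene that was higher, 3.69-fold (2.83 to 4.89).

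Radial glia markers outside the class rule were lower in the members in 14 of 17 measured and higher in 0, with a median log2 ratio of -1.99. Fabp7, a fatty acid binding protein gene, was 6.999-fold lower (6.41 to 7.65), and Sox9, a glial progenitor factor, 4.23-fold lower (3.52 to 5.08). Pax6, by contrast, had 234 CPM in the members and 288 CPM in radial glia, a difference within counting error (0.991 to 1.52 on the ratio of radial glia over members). Id3, an inhibitor of bHLH factors, was 39.2-fold lower (20.5 to 83.9). FGF pathway genes were lower in 4 of 4 measured, with Fgfr1 2.80-fold lower (2.07 to 3.76). Immediate early genes, which also respond to tissue dissociation, were lower in 4 of 10 and higher in 1; Fos was 4.79-fold lower (4.11 to 5.597).

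S-phase genes were lower in the members than in radial glia in 23 of 27 measured and higher in 0, with a median log2 ratio of -1.37. In the 50% split of UMIs, a mitotic UMI was seen in the unread part of 11.1% of members, against 26.3% of radial glia, and its part in the S-phase values was not tested. Pcna had 55.6 CPM in the members, against 167 CPM in radial glia, 3.005-fold lower (2.15 to 4.19). Uhrf1, a maintenance factor of DNA methylation in replication, was 6.70-fold lower (3.80 to 12.2).

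Scaffold and delamination genes were higher in the members than in radial glia in 8 of 15 measured and lower in 0 (median log2 ratio 1.06), while apical polarity and junction genes were higher in 5 and lower in 2 of 20. Cdh2, the N-cadherin gene of apical junctions, was within counting error at 137 CPM in the members and 172 CPM in radial glia. Migration genes were higher in 13 of 28, with Unc5d 8.46-fold (3.81 to 23.4) and Dcc, a netrin receptor gene, 5.03-fold (3.48 to 7.53). Young neuron genes gave no common direction (7 higher, 3 lower of 32), and the run medians were on either side of 0, at 0.77 and -0.08 log2. Stmn2, a neuronal tubulin-binding protein gene, had 426 CPM in the members and 576 CPM in radial glia, so radial glia also held RNA of neurons, and its part in these ratios was not tested.

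Choroid plexus and vessel genes were among the lowest against radial glia, and 6 cells decide this. Ttr had 24.7 CPM in the members and 6878 CPM in radial glia, and Col1a2 2.74 CPM, against 373 CPM. Of the 119 radial glia 2 held 3 or more choroid plexus UMIs and 5 held 3 or more endothelial UMIs, 6 cells in all. Without them Ttr was at 24.7 CPM in the members and 5.36 CPM in radial glia, and Col1a2 at 2.74 and 2.68 CPM. Id3 remained 35.6-fold lower, Hes1 8.02-fold lower and Notch2 10.1-fold lower without those cells.

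The members were also divided by Neurod1 relative to Eomes. Both genes belong to the rule, so they only define the bins and are not read as results. The bins are Neurod1 at 0 UMIs (206 cells), Neurod1 up to 0.5 of Eomes (162 cells) and Neurod1 above 0.5 of Eomes (56 cells), with median depths of 2886, 3092 and 3336 UMIs. Between the last bin and the first, 9.5% of 4251 genes measured were at least 1.5 times higher and 13.8% were lower. Genes in the next paragraphs were picked after their values were seen.

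Several Notch, proneural and radial glia genes were lower where Neurod1 was higher, but the list of proneural and neuronal bHLH factors was not, with 6 higher and 2 lower of 13 in the last bin. Hes5, a Notch effector, had 668, 185 and 139 CPM from the first to the last bin, a 4.81-fold difference between the ends (3.32 to 7.22). The pooled radial glia level of Hes5 lay below the first bin and above the others. Neurog1 had 187, 102 and 32.4 CPM, 5.77-fold lower in the last bin (2.72 to 14.7). Neurog2, with 1686, 1147 and 906 CPM, differed less, 1.86-fold (1.60 to 2.18).

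Of the Notch ligands measured, Dll1 was lower, with 368, 150 and 139 CPM, and Dll3 was higher, with 60.3, 53.6 and 92.5 CPM, a ratio between the ends of 1.53 (0.849 to 2.69). Vim, the vimentin filament gene of radial glia, had 1691, 730 and 546 CPM. Radial glia markers were lower in the last bin in 13 of 18 measured and higher in 0. Of 5 genes measured on the Notch target list, which counts Hes6, 4 were lower. Gas1, a cell surface protein gene named for growth arrest, was 8.80-fold lower (3.34 to 32.9) on 4 UMIs in the last bin. Btg2 and Gadd45g were also lower, with 797, 436 and 347 CPM and with 470, 214 and 153 CPM.

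Other picked genes were higher where Neurod1 was higher. Multipolar migration genes were higher in 7 of 19 measured and lower in 1. Nhlh2, a neuronal bHLH factor, had 16.6, 156 and 203 CPM, 12.3-fold higher in the last bin (6.24 to 26.3). Pcp4, a calmodulin-binding protein gene, had 43.7, 306 and 476 CPM. Unc5d had 49.7, 164 and 236 CPM, 4.74-fold higher (3.001 to 7.58).

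Nrp1, a semaphorin receptor gene, had 154, 336 and 513 CPM and Dcc 216, 415 and 689 CPM over the bins. Tbr1, the factor of early postmitotic cortical neurons, had 240, 484 and 573 CPM. Young neuron genes were higher in the last bin in 10 of 29 measured and lower in 1. Every gene given with values for the bins so far, Dll3 aside, differed between the last and the first bin in the same direction in both runs. Picking genes by their pooled values favours the same direction.

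Other genes of the members hardly moved over the bins. Elavl2 had 1209, 1290 and 1193 CPM, a ratio between the ends within counting error. Cdh2 had 136, 142 and 129 CPM. Nrarp, unlike Hes5, was not lower, with 197, 249 and 259 CPM.

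**Figure D3:**
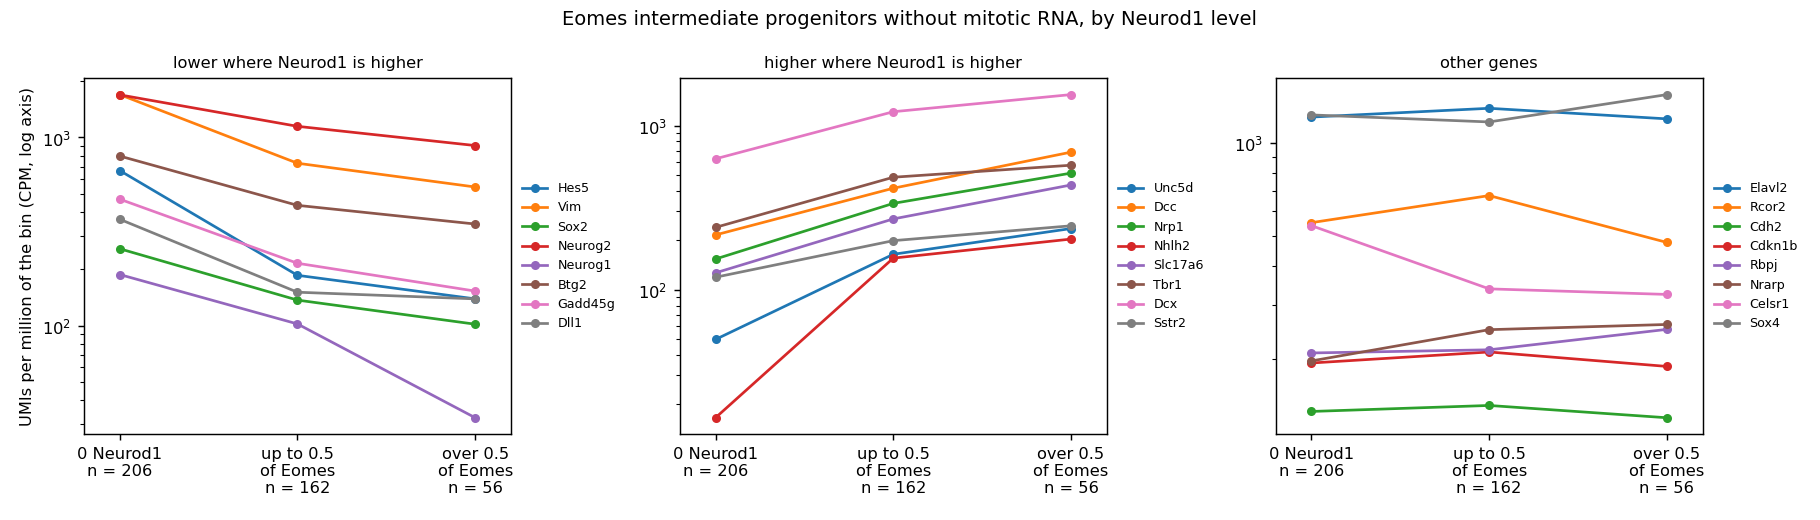
Levels of 24 genes in members with Neurod1 at 0 UMIs, up to 0.5 of Eomes and above 0.5 of Eomes, in CPM (log axes); each line is a gene. Hes5 was already low in the middle bin (668, 185 and 139 CPM), while Nhlh2 stood at 16.6, 156 and 203 CPM.

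S-phase RNA was counted in the members with a fixed cutoff. After thinning to 1000 UMIs, 171 of the 424 members (40.3%, 35.6 to 45.2%) held at least 2 UMIs over 44 S-phase genes, against 85.6% of dividing progenitors, 31.1% of newborn neurons (26.8 to 35.5%) and 69.7% of radial glia. Newborn neurons no longer replicate in textbook accounts, but whether 31.1% is a level without replication was not tested. The members lay a little above that share. The mean was 1.75 S-phase UMIs per thinned cell in the members, 5.54 in dividing progenitors, 1.19 in newborn neurons and 4.79 in radial glia. The share hardly differed over the Neurod1 bins, at 41.7%, 38.9% and 39.3% with overlapping intervals.

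The 171 members with at least 2 S-phase UMIs were set against the 127 members with none, at median depths of 2995 and 2941 UMIs. Of 4756 genes measured 5.59% were at least 1.5 times higher and 6.43% lower, and the S-phase genes that made the split are left out. The share that counting error alone would give in this split was not measured. The genes given here were picked after their values were seen. Ccnd1 was 3.09-fold higher (1.82 to 5.53), at 122 CPM, against 39.3 CPM, and Nes 2.95-fold higher (1.64 to 5.63). Radial glia markers were higher in 6 of 17 measured and lower in 0, and multipolar migration genes were lower in 8 of 23 and higher in 0.

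On the other side, Robo2, an axon guidance receptor gene, was 2.54-fold lower (1.79 to 3.65) in the members with at least 2 S-phase UMIs. Snap25, a synaptic vesicle fusion gene, was 2.18-fold lower (1.54 to 3.13). The 4 markers other than Eomes had a median log2 ratio of 0.36, none past 1.5-fold. Gadd45g was 1.45-fold higher (1.16 to 1.83), Neurog1 1.41-fold (0.974 to 2.07) and Neurog2 1.17-fold (1.05 to 1.30), and Btg2 was level at 627 CPM, against 626 CPM. Ccnd1, Nes, Robo2 and Snap25 kept their direction in both runs, which picking them by pooled value favours.

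**Figure D4:**
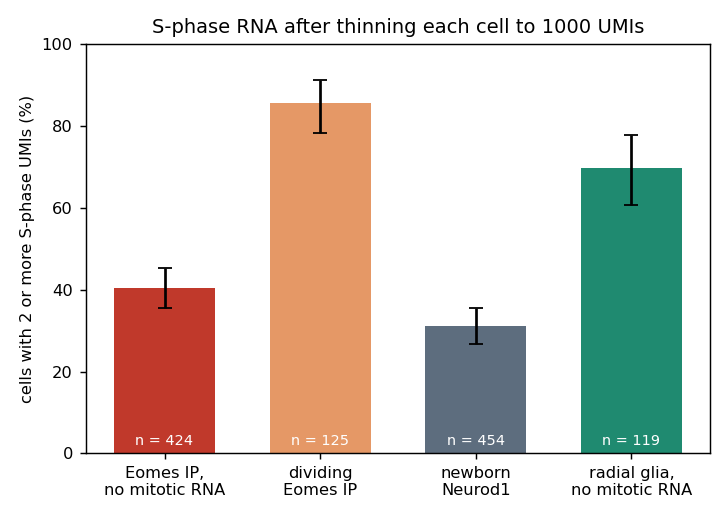
Share of cells with at least 2 S-phase UMIs after thinning each cell to 1000 UMIs, in percent with exact 95% intervals, drawn as error lines, for members, dividing progenitors, newborn neurons and radial glia. The members stood at 40.3%, between newborn neurons at 31.1% and radial glia at 69.7%.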

How the data were processed

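Single cells of mouse forebrain were captured with the SureCell workflow, per the labels' protocols, and 16 samples were deposited as 1 matrix of UMI counts (14498 genes, 5777 cells, 21609944 UMIs). The build is mm10, per the submitters' processing notes; for the aligner, counter and cell filter the sources used here name nothing. As deposited, the count matrix held 0 mitochondrial genes, no gene in fewer than 5 cells and no cell under 1111 UMIs. Classes were cut by UMI thresholds, UMIs were summed per class and scaled to CPM, and ratios were taken where both classes together held at least 50 UMIs of a gene. Nothing says that the samples came from separate litters, and with 1 pool no test was made; intervals cover counting error only. Doublets were kept, and removed in an alternative as the 5% highest Scrublet scores. These scores took 6.37% of the members, 12% of dividing progenitors, 3.96% of newborn neurons and 4.20% of radial glia. Members and gene lists were chosen with earlier results of these data known. Named genes were the markers given with the rule, the 8 largest ratios in each direction with a summed minimum of 100 UMIs, and the largest of each list; any other gene was chosen after its values were seen, and a few named genes are not reported here. Python 3.11.15, numpy 2.4.6, scipy 1.17.1, pandas 2.3.3 and scanpy 1.11.5 were used, and ratios were tested on simulated data. Alternatives covered class thresholds, UMI minimum, fold limit, scaling, thinning, runs and doublets.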

Additional observations from a re-analysis of the deposited data

How the results depend on the processing

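Under the alternatives run, 146 of 158 named-gene results and 63 of 89 list medians never changed sign. Of the results past 1.5-fold, 9 of 152 for genes and 2 of 28 for lists did. The share of cells that are Eomes intermediate progenitors without mitotic RNA, 7.34%, was 8.603% at an Eomes minimum of 2, 5.82% at 5, 9.04% with at most 1 mitotic UMI and 4.21% after thinning. Genes higher and lower than in dividing progenitors (876 and 807) were 1741 and 1619 at a 10-UMI minimum, 226 and 173 at 200, 183 and 331 at a 2-fold limit, and 421 and 266 after thinning. The lower count was 534 in the second run and 427 with classes and values from separate UMIs, and the higher count 445 with dividing cells cut at 1 mitotic UMI. Against newborn neurons (1151 and 936) the same settings gave 2046 and 1579, 340 and 431, 414 and 337, and 525 and 511, with 691 higher from separate UMIs. Against radial glia (1179 and 1000) they gave 1912 and 2374, 361 and 166, 461 and 417, and 635 and 351. There the lower count was 637 in the first run, 599 in the second and 580 from separate UMIs. Against all other cells (1176 and 2384) the higher count was 2324 at 10 UMIs, and a 2-fold limit gave 415 and 1329.

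These log2 ratios past 1.5-fold changed sign, and the cause was not tested. Against dividing progenitors the ventral list median was 0.21 thinned and 0.071 without cells with 5 or more ventral UMIs, where Dlx2 was 0.78 and Dlx1 0.057. In the second run Dlx1 was 1.05 and Reln 0.10. Against newborn neurons Sst was 0.93 without doublets, 0.29 thinned, 0.67 in the second run and 1.02 without ventral RNA, and Ttr -1.18 in the second run. Against radial glia Gad1 was -0.040 with equal weight per cell and -0.13 without ventral RNA, Hs3st4 0.15 with radial glia cut at 5 marker UMIs, and Ttr 2.203 and Col1a2 0.033 without choroid plexus or endothelial cells. Against all other cells the Cajal-Retzius list median was 0.29 in the second run. Leaving out cells with ventral, choroid plexus or endothelial RNA was chosen after seeing the data. No paired analysis was possible because cells cannot be assigned to samples and no test was made. Genes with few UMIs have wide intervals.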

Other observations

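Deep layer genes summed to 4868 CPM in the members, against 3331 CPM in dividing progenitors and 7809 CPM in newborn neurons. Of 9 deep layer genes measured 4 were higher than in dividing progenitors and 0 lower, and of 12 measured against newborn neurons 1 was higher and 5 lower. Bcl11b (Ctip2), a factor of subcerebral projection neurons, had 425 CPM in the members, against 274 CPM in dividing progenitors and 835 CPM in newborn neurons. Upper layer and callosal genes were higher than in dividing progenitors in 5 of 10, and against newborn neurons they split into 5 higher and 4 lower, with a sum of 3103 CPM in the members, against 2636 CPM in dividing progenitors and 2608 CPM in newborn neurons. Pou3f1 was 1.93-fold higher than in newborn neurons (1.61 to 2.33), with 1.06-fold in the first run and 2.89-fold in the second, so the second run carries that difference.

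Chromatin regulators of progenitors gave 5 higher and 5 lower of 31 against dividing progenitors, and 10 higher and 5 lower of 32 against newborn neurons. Chd7, a chromatin remodeller gene, had 386 CPM in the members, against 102 CPM in newborn neurons, 3.80-fold higher (3.23 to 4.49). Dnmt1, the maintenance DNA methyltransferase gene, was 2.72-fold lower than in dividing progenitors (2.18 to 3.41). Wnt pathway genes were lower than in radial glia in 9 of 19 and higher in 3, with list medians on either side of 0 in the runs (0.205 and -0.998 log2). Fzd8, a Wnt receptor gene, had 63.1 CPM in the members, against 152 CPM in radial glia (2.42-fold lower, 1.73 to 3.37), and 11.2 CPM in newborn neurons (5.64-fold higher, 3.51 to 9.44).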
